A study of Mus musculus with 30 samples.

Results

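The immediate early genes described here are Fos, Fosb, Jun, Junb, Egr1, Nr4a1, Nr4a2, Nr4a3, Atf3 and Ier2, 10 genes taken by name and followed through every group of an RNA sequencing study of mouse heart and of the mouse cell line HL-1. They are 10 of the 20764 genes listed for the hearts and of the 54532 listed for the cells, and all 10 passed the filters on low counts, which left 15443 and 14760 genes. The study asked how age and supply of NAD+, a redox cofactor and sirtuin substrate, bear on day and night gene expression in the heart. All hearts came from female mice labelled C57BL6, a mixed background of the C57Bl6J and C57Bl6N strains by the study's methods, kept in 12 h of light and 12 h of darkness, and were taken at Zeitgeber time (ZT, hours after lights on) 10, late in the light phase, or 22, late in the dark phase, when red light was used for the harvest. The young mice were 2 months old and untreated. The old mice were 12 months old and drank either plain water (H2O) or water with 3 g/L of nicotinamide riboside (NR), an NAD+ precursor, from the age of 2 months. Each combination had 3 hearts from separate mice, 18 in all, with 3922137 to 7562215 counts per library (median 5534659). HL-1 cells, a line from an atrial tumour of a female C57BL/6J mouse, were grown with serum and norepinephrine in the medium and were left untreated or given FK866, an inhibitor of the NAD+ synthesis enzyme NAMPT, FK866 with NR, or FK866 with NR and Ex527, an inhibitor of the deacetylase SIRT1. Each of these 4 groups had 3 libraries, with 21337922 to 35000109 counts (median 25529294). The study's methods describe replicates in cell experiments as wells cultured separately, so their p-values measure the spread between wells of 1 line.

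Immediate early genes are transcribed within minutes of a stimulus, from factors that already sit in the cell, and their messages are short lived. FOS and JUN proteins pair into the transcription factor AP-1, EGR1 is a zinc finger factor, the NR4A proteins are orphan nuclear receptors that need no ligand, ATF3 is a stress-induced factor of the ATF/CREB family, and IER2 is a nuclear protein of the same early response. In heart muscle the family is known to respond to stretch, adrenergic stimulation, ischaemia and the handling of tissue, and several members respond to cyclic AMP through the factor CREB, which binds a short palindrome or its first 5 bases.

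In the GRCm38 annotation (GENCODE M21), Fos lies at chr12:85473890-85477273 on the plus strand, Fosb at chr7:19302696-19310051 on the minus strand, Nr4a1 at chr15:101254269-101274795 on the plus strand, Nr4a2 at chr2:57106830-57124003 on the minus strand, Nr4a3 at chr4:48045153-48086447 on the plus strand and Atf3 at chr1:191170296-191218039 on the minus strand. Jun, at chr4:95049034-95052222 on the minus strand, and Ier2, at chr8:84661331-84662852 on the minus strand, have 1 exon each. Exons of Jun overlap those of Junos on the opposite strand, and exons of Junb, at chr8:84974484-84978718 on the minus strand, overlap those of Prdx2, so counts of Jun and Junb are less certain than the others. RefSeq promoter windows (GRCm38.p6) were searched for 8 of the 10 genes, in the 250 bases before the start and on both strands. Egr1 and Ier2 were not searched, so the motif counts do not cover them. The CREB half-site TGACG stood in 7 of the 8, all but Jun, against 17.8% of 32851 windows of the same length. The whole palindrome TGACGTCA, which contains the half-site, stood in 0 of the 8 (1.55% of all windows), the AP-1 site TGACTCA in 0 (4.46%), the E-box CACGTG of clock factors in 0 (6.02%), the NR4A response element AAAGGTCA in 0 (1.34%), the CArG box of serum response factor in 0 (1.47%), the heat shock element core GAANNTTC in 1, Jun (6.69%), and the TATA box TATAAA in 2, Fos and Nr4a2 (12.4%). A match describes letters in a window and not a bound site, and that of TATAAA in Nr4a2 was on the other strand. The stretches of Fos and of the 3 Nr4a genes that lie before the first exon are printed because they hold the most half-sites outside exons, with each half-site in capitals, read 5' to 3' along the gene, so that CGTCA marks one on the other strand. They are chr12:85473640-85473889 for Fos, chr15:101266596-101266845 for Nr4a1 (before a start inside the longer annotated gene), chr2:57124004-57124253 for Nr4a2 and chr4:48045055-48045152 for Nr4a3, where the bases between this stretch and the RefSeq start belong to an annotated exon.
Fos: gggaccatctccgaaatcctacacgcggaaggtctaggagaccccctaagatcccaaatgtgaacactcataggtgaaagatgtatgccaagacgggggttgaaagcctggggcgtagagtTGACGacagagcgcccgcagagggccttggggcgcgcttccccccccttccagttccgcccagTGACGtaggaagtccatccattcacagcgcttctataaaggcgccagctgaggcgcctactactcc
Nr4a1: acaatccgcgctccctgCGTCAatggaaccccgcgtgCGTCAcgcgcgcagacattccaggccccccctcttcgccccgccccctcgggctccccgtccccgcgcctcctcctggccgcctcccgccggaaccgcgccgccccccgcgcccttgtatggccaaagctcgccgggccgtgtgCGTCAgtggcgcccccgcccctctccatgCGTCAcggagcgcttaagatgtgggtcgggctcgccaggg
Nr4a2: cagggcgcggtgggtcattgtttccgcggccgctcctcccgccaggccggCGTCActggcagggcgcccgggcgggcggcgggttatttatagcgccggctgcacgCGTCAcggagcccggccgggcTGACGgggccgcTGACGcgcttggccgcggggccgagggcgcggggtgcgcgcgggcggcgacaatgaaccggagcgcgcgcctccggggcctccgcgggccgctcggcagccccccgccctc
Nr4a3: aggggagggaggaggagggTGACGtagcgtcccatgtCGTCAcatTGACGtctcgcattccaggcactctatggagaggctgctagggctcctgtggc
Fos held 2 half-sites, beginning 129 and 66 bases before its start, and Nr4a1 held 4, the nearest at 40 bases. Nr4a2 and Nr4a3 held 4 each in their full windows, and Fosb, Junb and Atf3 held 1 each. That of Atf3 began only 7 bases before a start inside the longer annotated gene, and it lay in an annotated Atf3 exon.

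One heart, picked out after seeing the data, stood apart from the other 17 in the levels of the 10 genes. In young ZT22 replicate 2, 6 of the 10 genes had their highest level of all hearts, against 10.9% of the tested genes. Its summed level of the 10 genes was 569.9 CPM (counts scaled to a common library size, with TMM factors), and the other hearts lay between 236.7 and 389.8. Its 626 counts for Atf3 and 326 for Nr4a3 rest on many reads, and its total of 6068397 counts was within the range of the others. Its sums of other gene lists were also the highest of the 18 hearts, at 2550 CPM for 38 other immediate early genes, 735 CPM for feedback inhibitors and 1133 CPM for heat shock genes. Its glucocorticoid targets and 10 of 11 lists of cell type markers lay within the range of the other hearts, and its T cell markers, at 3.65 CPM, lay below their 4.33 to 9.85 CPM. Calls among the 10 genes that rest on this heart are given below with and without it.

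The hearts carried the cardiomyocyte markers in full, with Myh6 at a median of 1788 CPM and Tnnt2 at 901 CPM. The HL-1 libraries did not, and they are called here by the name of the line only. Actc1, Myl2 and Pln had 0 counts in all 12 of them, Myh6 had a median of 0.058 CPM, and Tnnt2 reached 1.69 CPM at most. The fibroblast marker Col1a1 had a median of 605 CPM in them, and Dcn one of 144 CPM. The library of FK866 with NR, replicate 1, stood apart from the other 11, since 22167 genes had a count in it and its sums fell outside the range of the others in 8 of 11 marker lists. Its cardiomyocyte markers summed to 4.31 CPM where the others reached 1.77 CPM, while its summed level of the 10 genes, 94.0 CPM, was within their range.

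The 10 genes spanned a wide range of levels per transcript length. In the hearts, the median CPM per kilobase over 18 libraries was highest for Jun, at 36.7, followed by Ier2 at 17.3, Junb at 12.2, Nr4a1 at 10.7, Egr1 at 7.50, Atf3 at 6.62, Fos at 3.34, Nr4a3 at 2.14, Nr4a2 at 1.31 and Fosb at 0.232. In HL-1 cells, the authors' FPKM put Junb first, at a median of 13.9, with Jun at 8.32, Ier2 at 6.54, Egr1 at 3.33, Nr4a1 at 1.46, Atf3 at 0.989, Fos at 0.689, Nr4a2 at 0.305, Nr4a3 at 0.148 and Fosb at 0.106. The 3 genes at the top of the order in hearts varied least. Over the 18 hearts the highest level was 1.497 times the lowest for Ier2 and 1.66 times for Jun and 2.04 times for Junb, but 7.74 times for Fos, 16.1 times for Fosb, 16.4 times for Atf3 and 25.4 times for Nr4a3.

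**Figure D1:**
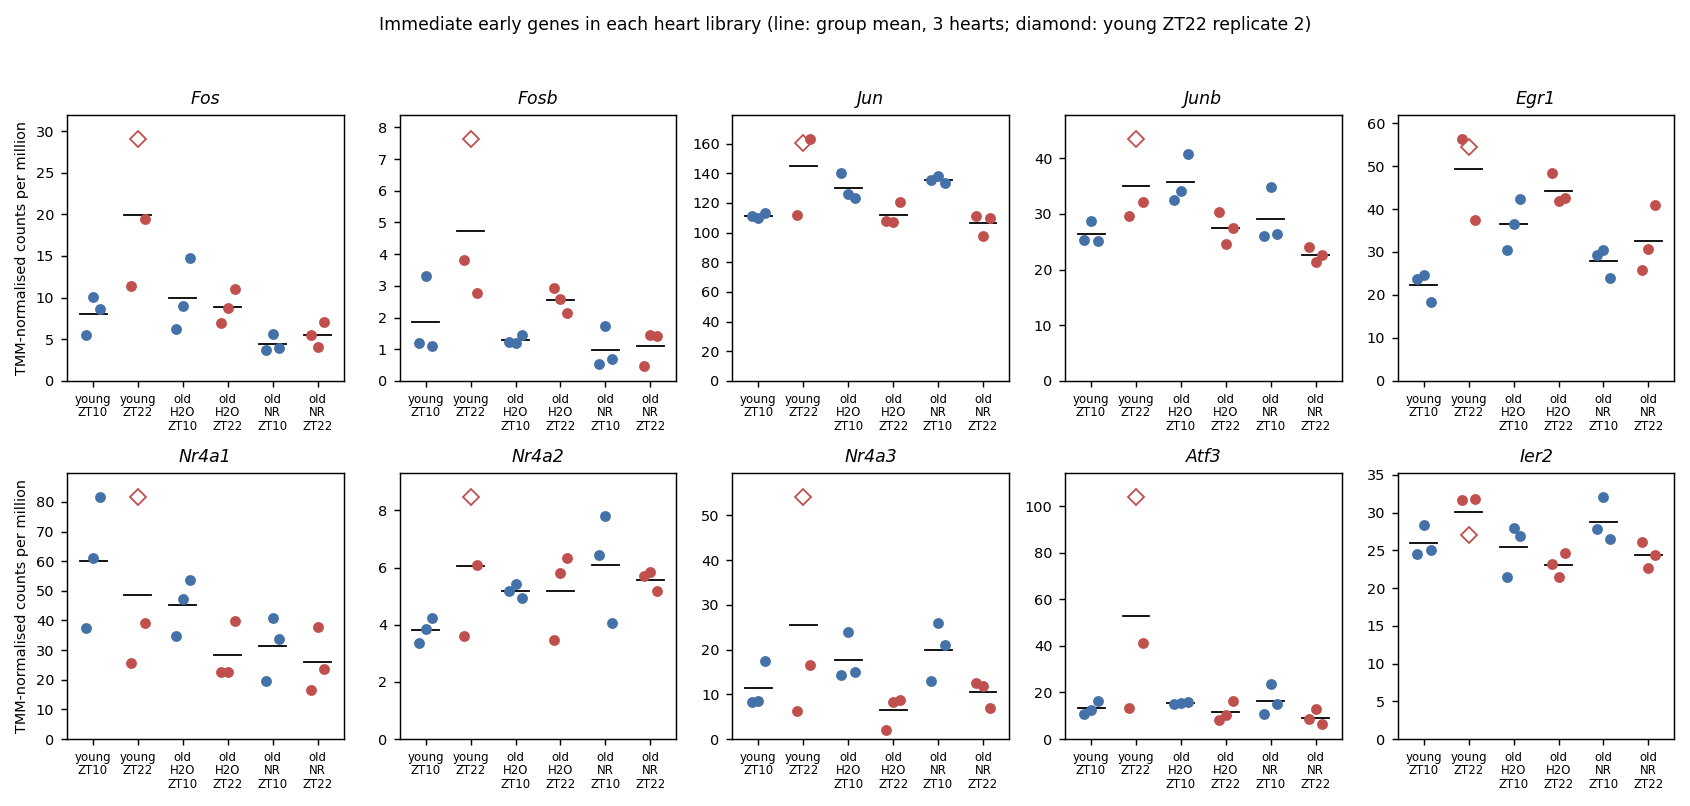
Level of each of the 10 genes in every heart, in CPM on a linear axis of its own per gene, for the 6 groups of 3 hearts; points are hearts, horizontal lines are means of 3, and the diamond is young ZT22 replicate 2. Atf3 and Nr4a3 reach 104 and 54.1 CPM in that heart and stay at or below 41.2 and 25.8 CPM in the other 17.

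In young hearts, 6 of the 10 genes were higher at ZT22 than at ZT10, namely Fos, Fosb, Jun, Junb, Egr1 and Atf3, and none was higher at ZT10. All fold changes given here are on the log2 scale. A call here is an adjusted p under 0.05 in edgeR's quasi-likelihood test over all tested genes, and 14.4% of them were called in this comparison. The median log2 fold change of the 10 genes, ZT10 over ZT22, was -0.92, where the median of all tested genes was 0.0069. Without young ZT22 replicate 2, only Egr1 was called, and 9.61% of all genes were. Without replicate 1 of the same group, the lowest of its hearts for Atf3 and the 3 Nr4a genes, 8 were called against 13.6% of all genes, with Nr4a2 (-0.94, adjusted p = 0.0268) and Nr4a3 (-1.67, adjusted p = 0.00913) added. In bulk tissue, fewer cells of a type and less RNA per cell cannot be told apart.

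Old hearts gave 1 call between the times under the 2 drinks together, with Nr4a3 added under each drink (adjusted p = 0.0273 on H2O and 0.0331 on NR) when only the hearts compared were fitted. In old hearts on H2O, 0 of the 10 genes were called between ZT10 and ZT22 by edgeR, against 4.2% of all genes, and DESeq2 also called 0, while 3 (Jun, Junb and Nr4a3) had an unadjusted p under 0.05, each with the higher mean at ZT10, as did 2731 of the 15443 tested genes in either direction. In old hearts on NR, Jun alone was called, higher at ZT10, against 5.37% of all genes. Medians of the 10 log2 fold changes were 0.18 and 0.24. The difference between young and old hearts on H2O in their ZT10 over ZT22 change, an interaction term, was called for Jun, Junb, Egr1, Nr4a3 and Atf3, each with a positive value, against 6.89% of all genes. It was positive for all 10 genes with all hearts, with a median of 0.72, but Fosb (-0.18) and Nr4a1 (-0.24) were negative without young ZT22 replicate 2. Leaving out 1 of the 12 hearts at a time gave 1 to 5 calls, and only Jun was called without young ZT22 replicate 2, against 4.98% of all genes. The young ZT22 hearts enter this term as well as the comparison of ZT22 with ZT10 in young hearts and that of old with young hearts at ZT22, so the 3 are not separate lines of evidence.

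Old hearts on H2O were then set against young hearts at each time. At ZT10 only Egr1 was called, higher in old hearts, against 5.87% of all genes, and the median over the 10 genes was 0.27. Jun (0.22) and Junb (0.43), also higher in old hearts, were called there when only the 6 hearts compared were fitted. At ZT22, Fos, Jun, Nr4a3, Atf3 and Ier2 were lower in old hearts and none was higher, against 14.1% of all genes, with a median of -0.57. Without young ZT22 replicate 2, Atf3 and Ier2 were called at ZT22, against 8.56% of all genes, and leaving out each of the other 5 hearts in turn gave 3 to 6 calls. NR in the water of old mice gave no call among the 10 genes with edgeR over all hearts or with DESeq2, but fitting only the 6 hearts compared called Fos at ZT10 (-1.14, adjusted p = 0.0395). At ZT10 edgeR and DESeq2 both called 0, against 0.285% of all genes by edgeR, and 3 genes (Fos, Junb and Egr1) had an unadjusted p under 0.05, with the lower mean on NR, where 1565 of all tested genes did in either direction. At ZT22 both called 0, against 0.35% of all genes, with Fos, Fosb and Egr1 at an unadjusted p under 0.05 and a lower mean on NR, where 1737 of all tested genes passed it in either direction. The change of the time of day difference with NR gave 0 calls by both tools, 0 genes at an unadjusted p under 0.05, and 0.343% of all genes called by edgeR.

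**Figure D2:**
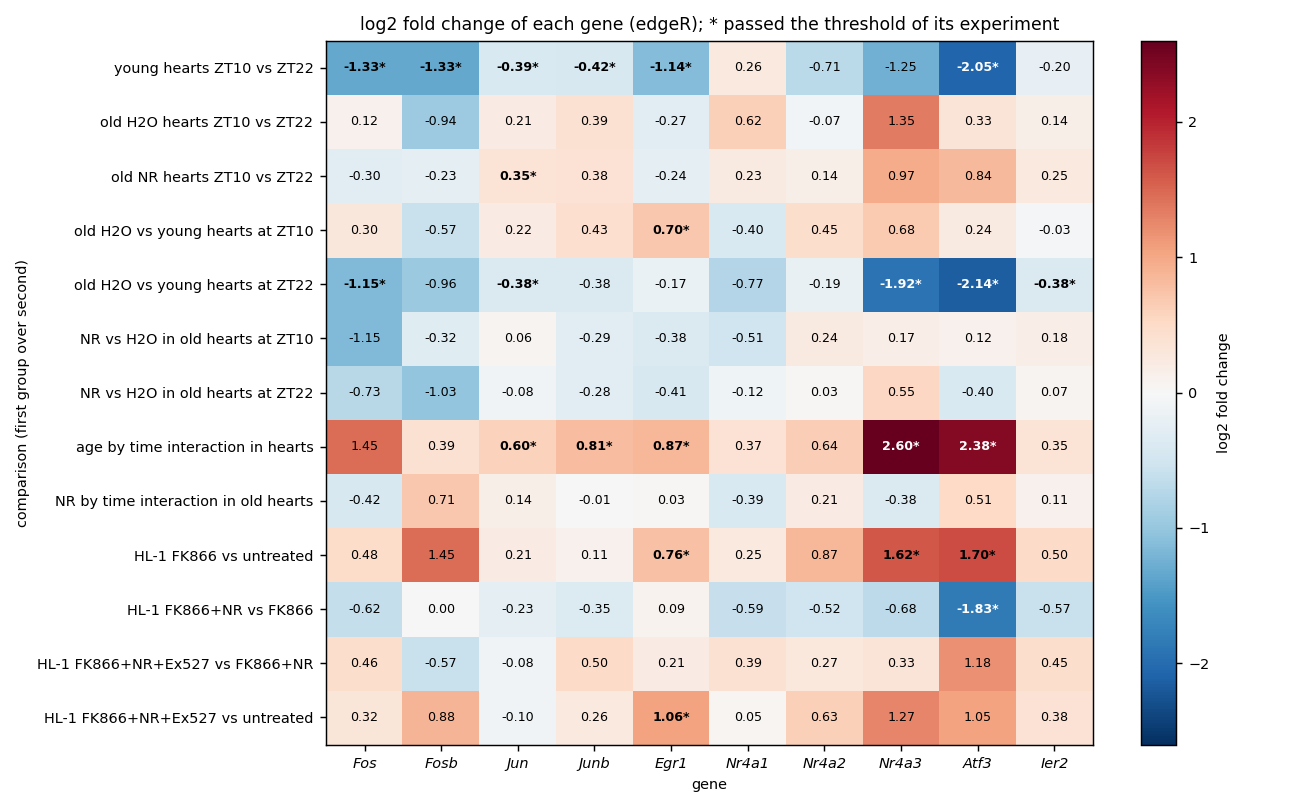
Log2 fold change of each of the 10 genes (horizontal axis) in the 13 comparisons (vertical axis), as a colour scale with the value in each cell. An asterisk marks a call. The calls gather in young ZT10 against ZT22 (6 genes), in old against young at ZT22 (5 genes) and in the interaction of age and time (5 genes).

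Fos, whose product is the classical partner of JUN in AP-1, was measured at 5.51, 10.1 and 8.67 CPM in young hearts at ZT10 and at 11.4, 29.0 and 19.4 CPM at ZT22. The groups did not overlap, and all 3 of the night hearts lay above all 3 of the day hearts. The log2 fold change was -1.33 (SE 0.31, adjusted p = 0.00476). Old hearts on H2O had 6.197, 8.999 and 14.8 CPM at ZT10 and 6.92, 8.69 and 10.99 CPM at ZT22, so that the 2 times overlapped (log2 fold change 0.12, SE 0.32). At ZT22 the old hearts lay below every young heart, with a log2 fold change of -1.15 (SE 0.29, adjusted p = 0.0116). The interaction of age and time was 1.45, with an adjusted p of 0.0539. It was called under 3 of 7 other settings and in 2 of 12 fits that left out 1 heart. Old hearts on NR had the lowest levels, 3.75, 5.63 and 3.89 CPM at ZT10 and 5.47, 4.11 and 7.02 CPM at ZT22. Every NR heart lay below every H2O heart at ZT10, but the fold change of -1.15 (SE 0.36) had an adjusted p of 0.23, and of 0.0395 when only these 6 hearts were fitted. At ZT22 NR and H2O hearts overlapped by 1 heart of each group. Without young ZT22 replicate 2 the difference between times in young hearts was -0.95 (adjusted p = 0.06), and that between ages at ZT22 was -0.77 (adjusted p = 0.116).

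Fosb, a FOS relative that also pairs with JUN, was the scarcest of the 10 genes. It had 1.18, 3.30 and 1.11 CPM in young hearts at ZT10 and 3.81, 7.63 and 2.77 CPM at ZT22. The lowest night heart lay below the highest day heart, so the groups overlapped although the difference was called (log2 fold change -1.33, SE 0.43, adjusted p = 0.0393). The call was kept in 3 of the 6 fits that left out 1 of these hearts, and the fold change was -0.76 (adjusted p = 0.341) without young ZT22 replicate 2. DESeq2 (adjusted p = 0.0623) and a fit of only the 6 hearts (adjusted p = 0.0879) also ended it. In old hearts on H2O it was 1.24, 1.19 and 1.44 CPM at ZT10 and 2.93, 2.58 and 2.15 CPM at ZT22, which did not overlap and was not called (-0.94, SE 0.51, adjusted p = 0.344). On NR it stayed at 0.54, 1.73 and 0.68 CPM at ZT10 and 0.48, 1.46 and 1.40 CPM at ZT22. All 3 NR hearts at ZT22 lay below the H2O hearts of that time, with a fold change of -1.03 (SE 0.49, adjusted p = 0.439).

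Jun and Junb, the AP-1 partners of the FOS proteins, were the steadiest AP-1 genes. Jun had 111, 109.7 and 113 CPM in young hearts at ZT10 and 112, 160.3 and 163 CPM at ZT22. One night heart was at the level of the day hearts and the other 2 were well above it (log2 fold change -0.39, SE 0.10, adjusted p = 0.0101). It was -0.31 (adjusted p = 0.0706) without young ZT22 replicate 2. In old hearts the order of the times was turned, with 140.5, 126 and 123 CPM at ZT10 and 107.5, 107 and 121 CPM at ZT22 on H2O, which did not overlap and was not called (0.21, SE 0.10, adjusted p = 0.273). On NR, Jun had 136, 138 and 133 CPM at ZT10 and 111, 98.0 and 109.97 CPM at ZT22. Each ZT10 heart was above each ZT22 heart, and this was the 1 call among the 10 genes between times in old hearts (0.35, SE 0.10, adjusted p = 0.0346), kept in 1 of the 6 fits that left out 1 of its hearts, with adjusted p from 0.0378 to 0.18. The interaction of age and time for Jun was 0.60 (adjusted p = 0.0119). It was called in each of the 12 fits that left out 1 of the 12 hearts concerned, and at 0.52 (adjusted p = 0.0379) without young ZT22 replicate 2. At ZT22 Jun was lower in old than in young hearts by a log2 fold change of -0.38 (SE 0.10, adjusted p = 0.0132), with overlap, of -0.30 (adjusted p = 0.0816) without that heart, and with an adjusted p of 0.0968 when only these 6 hearts were fitted.

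Junb had 25.4, 28.8 and 25.1 CPM in young hearts at ZT10 and 29.6, 43.5 and 32.2 CPM at ZT22. The groups did not overlap, and the fold change was -0.42 (SE 0.14, adjusted p = 0.0489). It was called in 2 of 6 fits without 1 heart, and was -0.22 (adjusted p = 0.362) without young ZT22 replicate 2. The adjusted p was 0.0643 with DESeq2 and 0.0675 when only these 6 hearts were fitted. Old hearts on H2O had 32.4, 34.1 and 40.7 CPM at ZT10 and 30.3, 24.6 and 27.5 CPM at ZT22. Here the day hearts were the higher ones, again without overlap, and the difference was not called (0.39, SE 0.14, adjusted p = 0.122). Its interaction of age and time was 0.81 (adjusted p = 0.0147), and 0.61 (adjusted p = 0.053) without young ZT22 replicate 2. Old hearts on NR had 26.1, 34.8 and 26.4 CPM at ZT10 and 24.0, 21.3 and 22.6 CPM at ZT22. The ZT22 hearts on NR were the lowest group for Junb, and all 3 lay below the H2O hearts of that time (-0.28, SE 0.14, adjusted p = 0.488).

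Egr1, a zinc finger factor that serum response factor switches on, gave the firmest time of day difference of the 10. It had 23.6, 24.8 and 18.5 CPM in young hearts at ZT10 and 56.3, 54.4 and 37.5 CPM at ZT22. All night hearts were above all day hearts, with a log2 fold change of -1.14 (SE 0.17, adjusted p = 7.86e-05). It was called in each of the 6 fits that left out 1 of these hearts, and at -1.05 (adjusted p = 0.000903) without young ZT22 replicate 2. Old hearts on H2O had 30.4, 36.5 and 42.4 CPM at ZT10 and 48.4, 41.9 and 42.6 CPM at ZT22. The day level was above that of every young day heart, with a fold change of 0.70 (SE 0.18, adjusted p = 0.0205), called in 3 of 6 fits that left out 1 heart; without old H2O ZT10 replicates 2 or 3 or young ZT10 replicate 3 the adjusted p was 0.06, 0.11 and 0.109. At ZT22 old and young hearts overlapped (-0.17, SE 0.15). The interaction of age and time was 0.87 (adjusted p = 0.0267), and 0.78 (adjusted p = 0.0722) without young ZT22 replicate 2. On NR, Egr1 had 29.3, 30.5 and 24.0 CPM at ZT10 and 25.9, 30.7 and 41.0 CPM at ZT22. All 3 NR hearts at ZT22 were below the H2O hearts of that time, with a fold change of -0.41 (SE 0.16, adjusted p = 0.307).

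The 3 Nr4a genes encode a family of receptors tied to metabolism and to adrenergic signalling in muscle. Nr4a1 was the most abundant of them. It had 37.4, 61.1 and 81.6 CPM in young hearts at ZT10, 25.6, 81.5 and 39.2 CPM at ZT22, 34.7, 47.2 and 53.5 CPM in old hearts on H2O at ZT10 and 22.6, 22.5 and 39.7 CPM at ZT22. It had 19.5, 40.7 and 33.8 CPM in old hearts on NR at ZT10 and 16.6, 37.8 and 23.6 CPM at ZT22. The groups overlapped in each of the 7 comparisons of pairs of heart groups, and none was called in the fit of all 18 hearts. Between ages at ZT22 the fold change was -0.77, called under 1 of 7 other settings. It was called in 1 of 6 fits that left out 1 heart, with values from -1.14 to -0.16. Between times in young hearts its fold change was 0.26 (adjusted p = 0.694), and 0.86 (adjusted p = 0.113) without young ZT22 replicate 2. Nr4a2 was low throughout, with 3.34, 3.85 and 4.22 CPM in young hearts at ZT10, 3.59, 8.46 and 6.10 CPM at ZT22, 5.16, 5.43 and 4.94 CPM in old hearts on H2O at ZT10 and 3.46, 5.80 and 6.32 CPM at ZT22. On NR it had 6.43, 7.80 and 4.06 CPM at ZT10 and 5.70, 5.83 and 5.20 CPM at ZT22. It was called in no heart comparison with all 18 hearts. Between times in young hearts it was -0.71 (adjusted p = 0.119), and -0.38 (adjusted p = 0.547) without young ZT22 replicate 2.

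Nr4a3 had 8.26, 8.44 and 17.6 CPM in young hearts at ZT10 and 6.28, 54.1 and 16.5 CPM at ZT22. The ZT22 hearts spanned the whole range of the day hearts and went far past it in replicate 2, and the difference was not called (-1.25, adjusted p = 0.102). Without that heart it was -0.063 (adjusted p = 0.969). Old hearts had 14.3, 23.9 and 15.01 CPM on H2O at ZT10 and 2.13, 8.37 and 8.72 CPM at ZT22. They had 13.04, 25.8 and 20.96 CPM on NR at ZT10 and 12.6, 11.9 and 7.02 CPM at ZT22. In old hearts the day level was above the night level without overlap under both drinks, with fold changes of 1.35 (SE 0.55, adjusted p = 0.194) and 0.97 (SE 0.50, adjusted p = 0.318). Between ages at ZT22 the fold change was -1.92 (SE 0.52, adjusted p = 0.0175), with overlap, and it was -0.73 (adjusted p = 0.347) without young ZT22 replicate 2. Robust dispersion (adjusted p = 0.0828) and a fit of only these hearts (adjusted p = 0.0788) ended that call as well. The interaction of age and time was 2.598 (adjusted p = 0.0375), the largest of the 10, and 1.41 (adjusted p = 0.175) without that heart. It was not called with DESeq2 (adjusted p = 0.0802), robust dispersion (adjusted p = 0.136) or a fit of only the groups compared (adjusted p = 0.0595).

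Atf3, induced by many forms of stress, had the largest time of day difference. It had 10.8, 12.3 and 16.4 CPM in young hearts at ZT10 and 13.5, 104 and 41.2 CPM at ZT22. A pair of the night hearts lay above all others of the 18, and the remaining one lay within the day hearts, so that the mean at ZT22 was 52.9 ± 46.3 CPM (SD, n = 3). The fold change was -2.05 (SE 0.45, adjusted p = 0.00335), and -1.10 (adjusted p = 0.0619) without young ZT22 replicate 2. Old hearts on H2O had 15.1, 15.3 and 16.0 CPM at ZT10 and 8.25, 10.5 and 16.3 CPM at ZT22. Those on NR had 10.5, 23.8 and 15.04 CPM at ZT10 and 8.55, 12.7 and 6.32 CPM at ZT22. In these 4 groups no heart passed 23.8 CPM and no comparison was called. Between ages at ZT22 the fold change was -2.14 (SE 0.44, adjusted p = 0.0026), and it remained called at -1.19 (adjusted p = 0.0433) without young ZT22 replicate 2. The interaction was 2.38 (adjusted p = 0.0412), and 1.43 (adjusted p = 0.112) without it. Robust dispersion (adjusted p = 0.145) and a fit of only the groups compared (adjusted p = 0.0613) did not call it.

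Ier2, whose product acts in the nucleus early in the growth response, was the most even of the 10 genes. It had 24.6, 28.4 and 25.1 CPM in young hearts at ZT10 and 31.6, 27.0 and 31.8 CPM at ZT22. It had 21.5, 28.0 and 26.9 CPM in old hearts on H2O at ZT10 and 23.2, 21.4 and 24.6 CPM at ZT22, and 27.9, 32.1 and 26.5 CPM on NR at ZT10 and 26.1, 22.7 and 24.4 CPM at ZT22. The old hearts on H2O at ZT22 lay below all young hearts of that time, with a fold change of -0.38 (SE 0.11, adjusted p = 0.0295). This difference did not rest on young ZT22 replicate 2, which had the lowest Ier2 level of its group, and was -0.46 (adjusted p = 0.0243) without it. It was called in 2 of the 6 fits that left out 1 of these hearts, and was not called with DESeq2 (adjusted p = 0.0668) or when only these hearts were fitted (adjusted p = 0.0704).

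**Figure D3:**
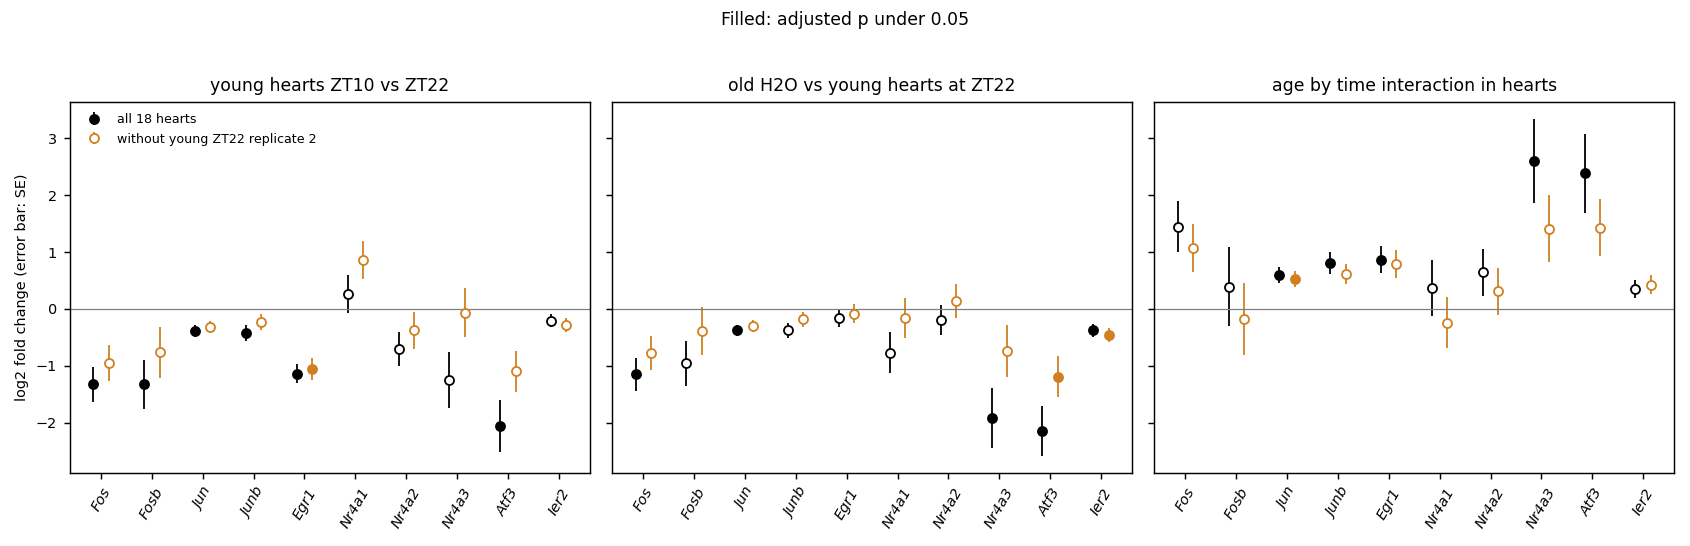
Log2 fold change with its standard error for the 10 genes in 3 comparisons, ZT10 over ZT22 in young hearts, old over young at ZT22 and the interaction of age and time, with all 18 hearts and without young ZT22 replicate 2; filled points have an adjusted p under 0.05. Most points move towards 0 without that heart, with calls falling from 6 to 1, from 5 to 2 and from 5 to 1.

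Other genes of the same response were followed as lists. Of 37 other immediate early genes tested in the hearts, 5 were higher and 12 lower at ZT10 than at ZT22 in young hearts, against 14.4% of all genes in either direction, with a median fold change of -0.27. The lower ones included Egr3 (-2.11, adjusted p = 0.000312) and Egr2 (-1.997, adjusted p = 0.0113), both relatives of Egr1, which without young ZT22 replicate 2 were at -1.68 (adjusted p = 0.00421) and -1.23 (adjusted p = 0.159), while Gadd45b (1.44, adjusted p = 1.29e-05) and Gadd45a (1.07, adjusted p = 0.000244), which act in the DNA damage response, and Cebpb (1.03, adjusted p = 1.52e-05), an acute phase factor, were higher at ZT10. Without young ZT22 replicate 2 the counts were 6 higher and 6 lower, against 9.61% of all genes. In old hearts on H2O, 6 of the 37 were higher at ZT10 and 2 lower, against 4.2% of all genes, and on NR 7 were higher and 2 lower, against 5.37%, with Cebpb at 1.05 and 0.79, Ier3 at 0.89 and 0.88 and Maff at 0.81 and 0.88. Between ages at ZT22, 10 were lower in old hearts and 1 was higher, against 14.1% of all genes, led by Egr3 at -0.96 and Ier5 at -0.92. Leaving out that heart gave 4 lower and 0 higher, against 8.56%, with Ier5 still called (-0.72) and Egr3 not (-0.53, adjusted p = 0.31). The interaction of age and time called 10 with a positive and 2 with a negative value, against 6.89% of all genes, with Egr3 at 1.80, Maff at 1.49 and Ccn2 at 1.38, and 4 and 1 without that heart, against 4.98%, when Maff (1.21) and Ccn2 (0.92) were called and Egr3 (1.38, adjusted p = 0.102) was not. At ZT10, Maff (0.82) and Ccn2 (0.76) were higher in old hearts and none of the 37 was lower, against 5.87% of all genes. NR gave 0 calls in the list at either time, against 0.285% and 0.35%.

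Heat shock genes, which encode chaperones and answer to a separate factor, showed the age and time pattern with and without the heart that stood apart. Of 8 tested, 5 were lower at ZT10 in young hearts, 6 were lower in old than in young hearts at ZT22 and 6 had a positive interaction, and these counts were 5, 6 and 6 without young ZT22 replicate 2. The shares of all genes called in these 3 comparisons were 14.4%, 14.1% and 6.89%, and 9.61%, 8.56% and 4.98% without that heart. Hspa1a had 2.68 ± 1.02 CPM at ZT10 and 15.8 ± 13.9 CPM at ZT22 in young hearts (SD, n = 3), which overlapped, with a fold change of -2.58 (adjusted p = 0.00123), and of -1.67 (adjusted p = 0.0183) without that heart. Hsp90aa1 had an interaction of 1.13 (adjusted p = 1.42e-05), and of 1.08 without it; Hspa1a and Hspa1b are near-identical copies whose reads may be split between them. Among 12 upstream factors of the response, 4 were lower and 1 higher at ZT10 in young hearts, against 14.4% of all genes, including the cyclic AMP responsive factor Crem (-0.93, adjusted p = 0.000558) and Srf, the serum response factor (-0.47). The counts were 4 and 0 without young ZT22 replicate 2, against 9.61%, with Crem at -0.62 and Srf at -0.43, both still called. Crem was also lower in old hearts at ZT22 (-0.90), and it had an interaction of 1.27, at -0.60 and 0.97 without that heart, again both called. Of 10 feedback inhibitors, which end the signal that starts the response, 2 were lower at ZT10 in young hearts, Dusp8 (-1.01, adjusted p = 1.24e-06) and Dusp5 (-0.73), a count near the 14.4% of all genes. Only Dusp8 (-0.83) was called without young ZT22 replicate 2, against 9.61% of all genes, when Dusp5 was at -0.46 (adjusted p = 0.123). Dusp8, a phosphatase of the stress kinases JNK and p38, was higher in old hearts at ZT10 (0.54), lower in them at ZT22 (-0.69) and had an interaction of 1.23 (adjusted p = 5.66e-05); without that heart it was called at -0.51 and 1.05 in the latter pair. Glucocorticoid targets, which follow the daily hormone rhythm, had 2 of 6 genes higher at ZT10 in young hearts and in old hearts on H2O and on NR, against 14.4%, 4.2% and 5.37% of all genes. The count in young hearts was 1 without young ZT22 replicate 2, against 9.61%. Between ages at ZT22, 1 of the 6 was lower in old hearts, against 14.1%.

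Markers of cell types were tested in the same comparisons, as 55 genes in 11 lists. Between times in young hearts 6 of the 55 were called (10.9%), a share below the 14.4% of all genes. The endothelial receptor gene Kdr was lower at ZT10 (-0.53, adjusted p = 0.000545), and Myh11 of smooth muscle (0.62), the macrophage genes Cd68 (0.52) and Mrc1 (0.35), Lum of fibroblasts (0.31) and the atrial gene Bmp10 were higher, Bmp10 at 109.4 ± 185 CPM (SD, n = 3) against 0.488 CPM. No cardiomyocyte marker of 6 was called there or between ages at ZT22. Between times in old hearts on H2O 3 of the 55 were called, against 4.2% of all genes, namely Myl7 of atrium (1.14), Pdgfra of fibroblasts (-0.34) and Csf1r of macrophages (-0.35). Those on NR also gave 3, against 5.37%, namely Pdgfra (-0.28) and the smooth muscle genes Acta2 (0.36) and Cnn1 (1.43). Between ages at ZT22, 14 of the 55 were called, against 14.1% of all genes. Outside the macrophage list, Tie1 (-0.37) and Fabp4 (-0.26) of endothelium, Col1a1 of fibroblasts (-0.53) and Acta2 of smooth muscle (-0.31) were lower in old hearts, while Pdgfra (0.34) and Lum (0.43) of fibroblasts, Myh11 (0.53), Alas2 of red blood cells (0.61) and Cd3g of T cells (1.88) were higher. Of the markers named so far, Lum, Mrc1 and Bmp10 between times and Fabp4, Myh11, Alas2 and Cd3g between ages were not called without young ZT22 replicate 2. In the interaction of age and time 5 of the 55 were called, against 6.89% of all genes, namely Mrc1 (-0.63), Cd68 (-0.71), Csf1r (-0.39), Pdgfra (-0.39) and Myh11 (-1.04), of which Mrc1, Pdgfra and Myh11 remained so without that heart. Between ages at ZT10, 7 were called, against 5.87%. Adgre1 of macrophages (0.56) and Alas2 (1.12) were higher in old hearts, and Acta2 (-0.35), Myh11 (-0.51), Kcnj8 (-0.30), Col1a1 (-0.36) and Tie1 (-0.25) were lower. At ZT22, 5 of 6 macrophage markers were higher in old than in young hearts, among them Mrc1 (0.90, adjusted p = 3.08e-06), the most abundant of the list, and Cd68 (0.78, adjusted p = 0.001), and the list summed to 413, 374 and 377 CPM in the 3 old hearts and to 262, 269 and 294 CPM in the young ones. On NR at ZT22, 6 of the 55 markers were called, all lower than on H2O, against 0.35% of all genes. These were Col1a1 (-0.43), Acta2 (-0.42), Myh11 (-0.67) and 3 of the 6 macrophage markers, whose list summed to 288, 272 and 291 CPM. Atrial markers varied between hearts of both ages. At ZT10 their sums, led by Myl4, were 496, 479 and 643 CPM in old hearts on H2O and 163, 158 and 165 CPM on NR, where Sln, Myl4 and Myl7 were lower, and they were 881, 235 and 198 CPM in young hearts. Those 3 genes were all the markers of the 55 called for NR at ZT10, against 0.285% of all genes. The part of these cells in the levels of the 10 genes was not tested.

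The 10 genes varied more between hearts of a group than most genes of their level. Their median biological coefficient of variation, the spread between replicates beyond counting error, was 19.997% against 6.64% over all tested genes, and 9 of the 10 lay above the trend for their abundance, as did 33.3% of all genes. Nr4a3 was at 41.9%, Atf3 at 36.0%, Nr4a1 at 29.6%, Fosb at 28.8% and Fos at 24.4%. Nr4a2 was at 15.6%, Egr1 at 12.4%, Junb at 9.76%, Jun at 7.87% and Ier2, the 1 gene below its trend, at 6.41%. Leaving out young ZT22 replicate 2, an alternative chosen after seeing the data, gave a median of 16.2% against 6.46%, with 8 of 10 above the trend, Nr4a3 at 30.6% and Atf3 at 26.9%. In HL-1 cells the median was 15.6% against 8.39%, and 4 of the 10 lay above the trend, against 31.5% of all genes.

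**Figure D4:**
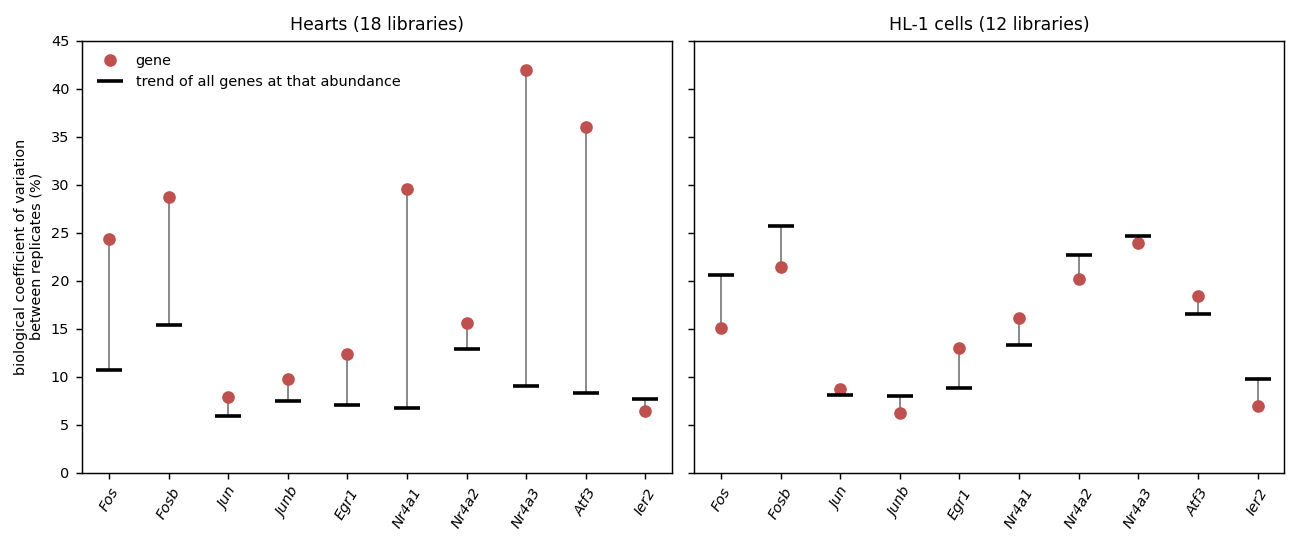
Biological coefficient of variation (percent, linear axis) of each of the 10 genes beside the trend value at its abundance. Hearts (18 libraries) and HL-1 cells (12 libraries) have a panel each. Nr4a3, Atf3 and Nr4a1 stand at more than 4 times the trend in hearts, and Ier2 lies below it.

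Within groups, the levels of many pairs of the 10 genes varied together, with Egr1 and Ier2 below 0 against 4 of the others each. Over the 18 hearts, with each level centred on its group mean, the median correlation of the 45 pairs of genes was 0.39, 36 pairs were above 0 and 19 exceeded 0.5. Nr4a3 with Atf3 had the highest value, 0.88, followed by Nr4a1 with Atf3 at 0.84 and Nr4a2 with Nr4a3 at 0.80. The lowest was Jun with Egr1 at -0.40, Egr1 was also below 0 with Nr4a2, Nr4a3 (-0.31) and Atf3, and Ier2 was below 0 with Jun, Nr4a1, Nr4a3 and Atf3 (-0.16). Without young ZT22 replicate 2 the median was 0.28 and 12 pairs exceeded 0.5, and in the 12 HL-1 libraries they were 0.14 and 3, with 27 of 45 pairs above 0 and a lowest value of -0.78. All points share the library and its scaling, so these values describe the hearts only. The genes outside the 10 whose centred levels were most like their mean, of 11067 ranked over the 18 hearts, were Eri1 (0.94), Tmem100 (0.94), Foxp1 (0.93), Brd1 (0.91), Irs1 (0.91), Clmp (0.89), Errfi1 (0.88) and Tent5a (0.88). Eri1, Tmem100, Foxp1 and Errfi1 were among the first 8 without young ZT22 replicate 2 too.

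In HL-1 cells, FK866 raised Egr1, Nr4a3 and Atf3, and Atf3 was lower when NR was given with it. A call in these cells is an adjusted p under 0.01 in edgeR's quasi-likelihood test with a change of over 1.5-fold. FK866 against untreated cells called 3 of the 10 genes, all higher, against 4.59% of all genes. FK866 with NR against FK866 alone called 1, lower, against 4.81%. Adding Ex527 to both called 0 by edgeR against FK866 with NR, where 3 genes, and 3430 of all 14760 tested, had an unadjusted p under 0.05 and DESeq2 called 1 (Atf3), against 0.596% of all genes by edgeR. The 3 drugs together against untreated cells called 1, Egr1, higher, against 1.42%. The median fold changes of the 10 genes were 0.63, -0.55, 0.36 and 0.50 in this order. Neighbouring comparisons share libraries, since FK866 cells enter the first and the second and FK866 with NR the second and the third.

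Atf3 showed the clearest course. Untreated cells had 1.88, 1.94 and 1.102 CPM, and FK866 cells had 4.41, 6.26 and 5.32 CPM. Cells with FK866 and NR had 1.53, 1.40 and 1.55 CPM, back among the untreated values, and cells with Ex527 added had 3.65, 2.38 and 4.24 CPM. The rise with FK866 was 1.695 (SE 0.25, adjusted p = 0.000169), and the difference with NR was -1.83 (SE 0.25, adjusted p = 0.000103); both were called in each of the 6 fits that left out 1 library. Without FK866 and NR replicate 1, the library that stood apart, the latter was -1.84 (adjusted p = 0.000659). Each library with Ex527 was above each of those with FK866 and NR, with a fold change of 1.18 (SE 0.25) and an adjusted p of 0.0125, which missed the threshold in edgeR's fit of all libraries and passed it without Ex527 replicate 2 (1.40, adjusted p = 0.00638). It was also called under 4 of 7 other settings, namely DESeq2, no filter, robust dispersion and a fit of only the groups compared.

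Egr1 had 10.02, 8.13 and 9.80 CPM in untreated cells and 16.5, 15.01 and 15.7 CPM with FK866, a fold change of 0.76 (SE 0.16, adjusted p = 0.00343). The call was kept in 4 of 6 fits that left out 1 library, and the adjusted p was 0.0161 without FK866 replicate 1 and 0.0233 without untreated replicate 2. With NR added it had 20.9, 15.3 and 14.3 CPM, and with Ex527 as well 20.03, 23.0 and 14.8 CPM. Each treated library of these 3 groups was above each untreated one. The level with NR overlapped that with FK866 alone (0.09, SE 0.16, adjusted p = 0.706), and the level with all 3 drugs was above the untreated one by 1.06 (SE 0.16, adjusted p = 0.00101), called in each of 6 fits without 1 library.

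Nr4a3 had 0.52, 0.38 and 0.39 CPM in untreated cells and 1.56, 0.99 and 1.46 CPM with FK866, a fold change of 1.62 (SE 0.38, adjusted p = 0.00587). The groups did not overlap, but the call was kept in 1 of 6 fits without 1 library, at adjusted p up to 0.0299, and these levels rest on few reads. With NR it had 1.34, 0.66 and 0.53 CPM and with Ex527 as well 0.92, 1.32 and 0.86 CPM, each overlapping the FK866 values. Fosb had 0.28, 0.31 and 0.28 CPM untreated and 0.85, 0.73 and 0.83 CPM with FK866, an even separation whose fold change of 1.45 (SE 0.40, adjusted p = 0.0149) missed the threshold. Fosb then had 0.79, 0.61 and 0.99 CPM with NR and 0.33, 0.43 and 0.86 CPM with Ex527 as well.

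Ier2 followed the course of Atf3 at a smaller size, below the 1.5-fold limit of a call. It had 8.83, 9.20 and 9.25 CPM untreated, 13.4, 13.2 and 12.1 CPM with FK866, 8.53, 8.78 and 8.69 CPM with NR added and 10.9, 13.2 and 11.5 CPM with Ex527 as well. None of the neighbouring groups in that order overlapped. Its fold changes were 0.50 (adjusted p = 0.0012), -0.57 (adjusted p = 0.000472) and 0.45 (adjusted p = 0.00971), and the middle one became a call without FK866 replicate 3 (-0.63, adjusted p = 0.000442). Junb had 32.6, 29.5 and 32.1 CPM untreated, 32.5, 36.2 and 33.1 CPM with FK866, 26.9, 24.9 and 27.8 CPM with NR and 38.5, 38.7 and 35.5 CPM with Ex527. The NR group was the lowest and the Ex527 group the highest but for 1 FK866 library, at -0.35 (adjusted p = 0.00275) and 0.50 (adjusted p = 0.00111). Fos stayed between 1.26 and 2.36 CPM, Jun between 20.2 and 33.8 CPM, Nr4a1 between 2.76 and 6.60 CPM and Nr4a2 between 0.57 and 1.97 CPM, with no call.

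**Figure D5:**
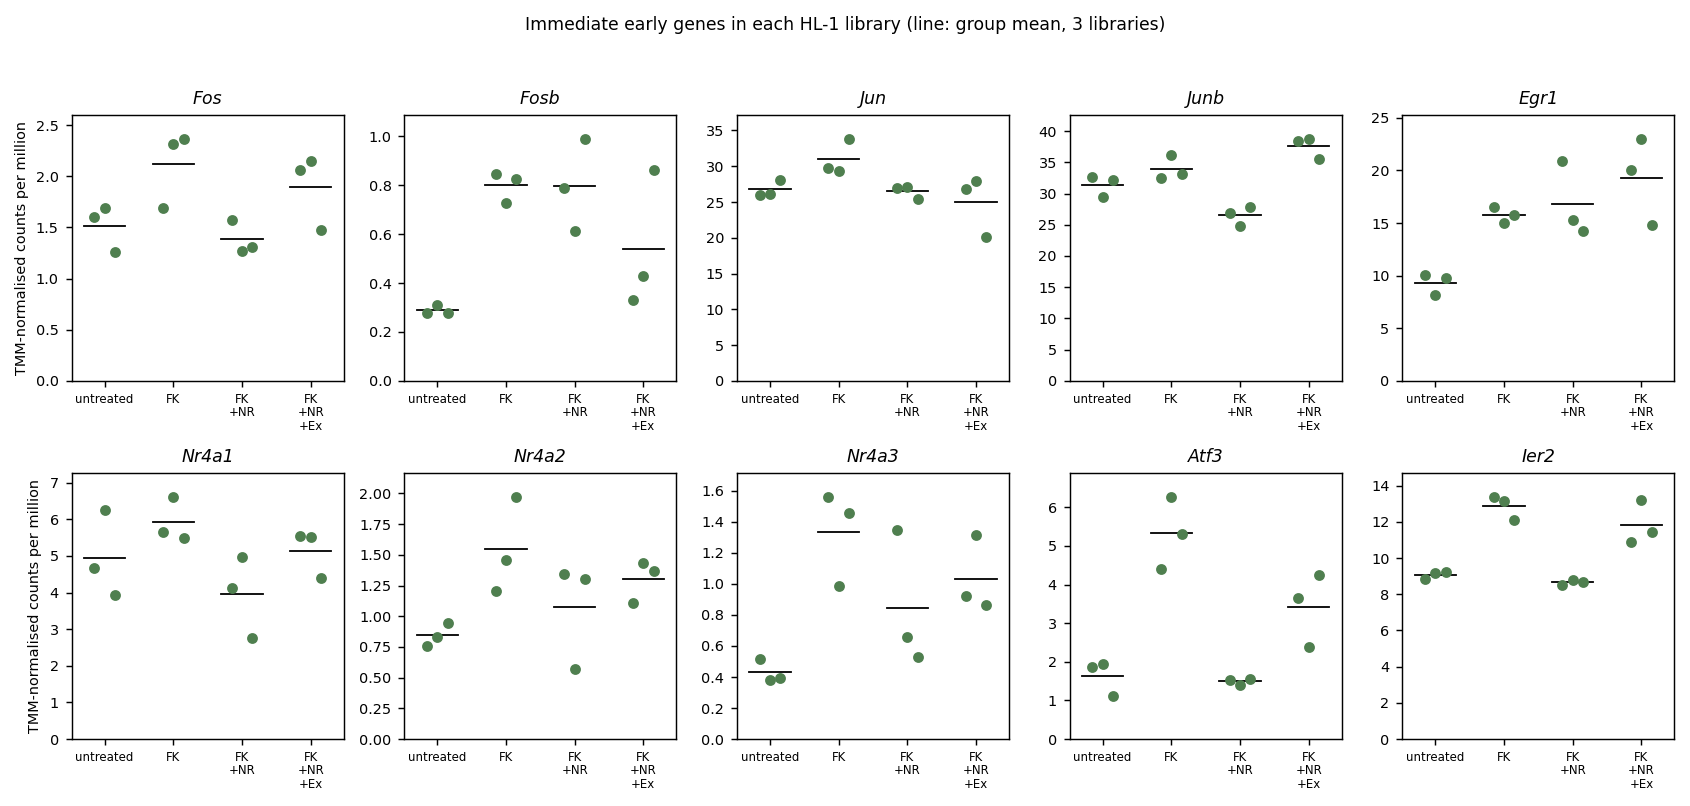
Level of each of the 10 genes in every HL-1 library, in CPM on a linear axis of its own per gene, for untreated cells, FK866, FK866 with NR, and FK866 with NR and Ex527; points are libraries and lines are means of 3. Atf3 and Ier2 are high with FK866, low with NR and higher again with Ex527, while Egr1 stays above the untreated level in all 3 treated groups.

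Other genes of the response were called in HL-1 cells too. Of 36 other immediate early genes tested, FK866 raised 3 (Klf4 at 1.04, adjusted p = 9.23e-07, Gadd45b at 1.03 and Ccn1 at 0.98, adjusted p = 1.9e-06) and lowered Zfp36l1 (-0.77), an mRNA decay factor, where 4.59% of all genes were called. With NR added, 7 were lower than with FK866 alone and 1 was higher, against 4.81% of all genes, among them Gadd45b (-1.29), Klf4 (-1.11), Ccn1 (-0.998) and Jund (-0.92), and 6 and 1 without the library that stood apart. None was called with Ex527, in either comparison. Dusp8 was higher with FK866 (1.55, adjusted p = 0.000147) and lower with NR (-1.74), and Dusp1, the phosphatase that is itself an early gene, was also lower with NR (-0.68). No heat shock gene, upstream factor or glucocorticoid target was called in the 4 comparisons. Some heat shock genes and glucocorticoid targets had an adjusted p under 0.01 there, with changes below the 1.5-fold limit. Of 18 markers of cell types tested in these cells, 5 were called with FK866, 4 with NR added, 3 with Ex527 against NR and 5 with all 3 drugs, where 4.59%, 4.81%, 0.596% and 1.42% of all genes were. Col1a2 and Pdgfra of fibroblasts fell with FK866 (-1.47 and -0.96) and were higher with NR (1.38 and 1.09), and the fibroblast list, led by Col1a1, summed to 839 to 893 CPM in untreated cells, 649.8 to 667 CPM with FK866, 787 to 813 CPM with NR and 822 to 913 CPM with Ex527, where Col1a2 was lower than with NR (-0.74). Tnnt2 was higher with FK866 (2.87) and lower with NR (-2.12), at 1.69 CPM or less, and Kcnj8, a pericyte gene, was lower with FK866 (-1.91) and higher with NR (1.38). Alas2 was lower with FK866 (-1.13) and with Ex527 against NR (-1.88), and Acta2 was lower with Ex527 against NR (-0.62). All 3 drugs against untreated cells lowered Col1a2 (-0.83), Dcn (-0.74), Alas2 (-2.07), Acta2 (-1.13) and Kcnj8 (-1.26). The part of these shifts in the levels of the 10 genes was not tested.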

How the data were processed

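The 10 genes and all gene lists were chosen with earlier results of these data known. For the hearts, the deposited counts per gene were used as counted by the authors: reads trimmed with Trimmomatic 0.39, aligned to mm10 with STAR 2.7.10a, freed of duplicates with Picard 3.0.0 and counted over exons with featureCounts 2.0.4, leaving out reads over several genes, per the submitters' processing notes and the study's methods. The table deposited as raw holds scaled values (a score, each library divided by 1 constant by the authors) and the one deposited as normalized holds the counts. For HL-1 cells, the deposited table holds the authors' counts and FPKM. The processing notes name HISAT2 and TopHat2 without versions, and the strandedness of the HL-1 libraries is not given in the sources used here. For the hearts the study's methods name a stranded library kit, but the strand setting used in counting is not given there. 0 columns of per-sample values were unmatched to a sample.

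Counts were tested with edgeR 4.0.16 (R 4.3.3, limma 3.58.1), TMM normalised, in 1 quasi-likelihood fit of all 18 hearts (average count over 5) and 1 of all 12 HL-1 libraries (filterByExpr), with Benjamini-Hochberg adjustment over all tested genes; log2 CPM for correlations had a prior count of 2. DESeq2 1.42.0, other filters, size factors, dispersions, sample sets and a replicate block were alternatives, and both fits were tested on simulated data. All 10 genes were described in every group; from each other list at most 5 called genes per comparison were named, those of largest absolute log2 fold change, and the 8 genes of most similar pattern were ranked among genes with an average count of at least 50. Columns of the authors' own comparisons were not used.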

Additional observations from a re-analysis of the deposited data

Results flagged for a closer look

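The change between ZT10 and ZT22 differed between young and old hearts on H2O, by a test of the interaction itself (edgeR), for 5 of the 10 genes, against 6.89% of all tested genes. The differences on the log2 scale were 0.60 for Jun (adjusted p = 0.0119), 0.81 for Junb (adjusted p = 0.0147), 0.87 for Egr1 (adjusted p = 0.0267), 2.598 for Nr4a3 (adjusted p = 0.0375) and 2.38 for Atf3 (adjusted p = 0.0412). Leaving out each of the 12 hearts in turn kept the call for Jun in 12 fits, for Junb in 11, for Egr1 in 5 and for Nr4a3 and Atf3 in 3 each. Fitting only the groups compared and robust dispersion called 3 of the 10 each. Of the 7 other settings that left out none of the 12 hearts, 4 called Nr4a3 and 5 called Atf3. Fos (1.45), which is not among the 5 genes, was called in 3 of these settings and in 2 of the 12 fits without 1 heart. Without young ZT22 replicate 2 only Jun was called (0.52, adjusted p = 0.0379), against 4.98% of all tested genes.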

How the results depend on the processing

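No direction of a called difference was reversed under the alternatives run, and DESeq2 size factors and the other filter on low counts moved no count of called genes among the 10 by over 1.5 times. Fitting only the groups compared gave 1 call in place of 0 between times in old hearts on H2O, 2 in place of 1 on NR, 3 in place of 1 between ages at ZT10, 2 in place of 5 between ages at ZT22, 1 in place of 0 (Fos, adjusted p = 0.0395) for NR at ZT10, 3 in place of 5 for the interaction of age and time and 1 in place of 0 for Ex527 against FK866 with NR. Robust dispersion gave 3 in place of 5 for the interaction and 1 in place of 0 for Ex527 against FK866 with NR. The latter was also 1 with DESeq2 and without a filter, both of which gave 2 in place of 1 for all 3 drugs against untreated cells. Leaving out 1 library at a time gave 1 to 8 calls between times in young hearts, 0 to 1 between times on NR, 0 to 1 and 2 to 6 between ages at ZT10 and ZT22, 1 to 5 for the interaction, 1 to 3 for FK866, 1 to 2 for NR with FK866, 0 to 1 for Ex527 and 1 to 2 for all 3 drugs; the other comparisons of hearts had 0 in each fit. The causes were not tested. Replicate numbers did not pair the libraries (5 of 45 same-numbered pairs of hearts and 3 of 18 of HL-1 libraries correlated over 0.1, and 8 of 18 hearts and 4 of 12 HL-1 libraries correlated best with their own number). A replicate block left 6 calls between times in young hearts, 0 in old hearts on H2O, 1 on NR and 1 between ages at ZT10, and gave 6 between ages at ZT22, 6 for the interaction, 0 and 0 for NR at ZT10 and ZT22, 0 for its change with time, and 3, 1, 0 and 1 in HL-1 cells.

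Over all tested genes, fitting only the groups compared gave 1479 calls in place of 906 between ages at ZT10, 1168 in place of 2183 at ZT22, 234 in place of 44 for NR at ZT10 and 2 in place of 54 at ZT22. A replicate block gave 70 and 86 for NR at ZT10 and ZT22. Without a filter, 1166 in place of 710 genes were called for FK866 with NR against FK866, 488 in place of 88 with Ex527 and 375 in place of 209 for all 3 drugs, and DESeq2 gave 151 with Ex527. Leaving out 1 heart gave 349 to 746 between times in old hearts on H2O (649 with all), 478 to 614 between ages at ZT10, 1321 to 2007 at ZT22, 0 to 22 for NR at ZT10, 2 to 78 at ZT22 and 15 to 78 for its change with time (53 with all), and leaving out 1 HL-1 library gave 51 to 82 with Ex527 and 93 to 380 for all 3 drugs. With 3 libraries a group, the spread of Nr4a3 and Atf3 within groups limits what can be called, and Fosb in hearts and Fosb, Nr4a2 and Nr4a3 in HL-1 cells rest on few reads.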
